A study of Mus musculus with 35 samples.

Results

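The mitochondrial genome transcripts are the 37 genes whose mouse symbol begins with mt-, taken from a table of 55421 genes by that symbol alone. They comprise 13 messenger RNA genes, 2 ribosomal RNA genes and 22 transfer RNA genes. RNA came from the interscapular brown adipose tissue (iBAT) of 35 male C57BL/6J mice aged 9 to 10 weeks, with 5 mice in each of 7 groups and 1 library per mouse. Controls stayed at room temperature (24 °C) under colony conditions, and cold groups spent 6 hours or 1, 2, 3, 4 or 5 days at 6 °C, housed singly and without nesting material, so the effects of housing and temperature cannot be told apart. No mouse carried a transgene or received a drug. The libraries were primed on poly(A) and read from the 3′ end with 76-base reads, so a count registers RNA that the oligo(dT) primer caught and does not scale with transcript length.

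The mitochondrial genome is a small circular DNA that is transcribed from both strands into long precursors. Its transfer RNA genes lie between the ribosomal and messenger RNA genes, and enzymes cut the precursors at the transfer RNA boundaries to release the individual RNAs. The messenger RNAs encode subunits of respiratory complexes I, III, IV and V, and the ribosomal and transfer RNAs serve the organelle's own ribosomes. Brown fat is unusually rich in mitochondria, in which uncoupling protein 1 releases respiratory energy as heat.

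The libraries held 3846016 to 6047247 counts, and mitochondrial genes took 40.2% of all counts. The summed level of 10 brown adipocyte markers ran from 5536 to 7663 CPM (a gene's count scaled to a common library total with TMM factors) in controls and reached 8568 to 16107 CPM in cold mice. Of these 10, 5 or 6 were called higher and 1 to 3 lower at each duration. For comparison, 16.4% to 21.6% of all genes tested were called higher and 14.7% to 21.0% lower at a given duration. Several of the marker counts that follow lie near these shares. Of 10 markers of mature adipocytes in general, 1 or 2 were called higher and 4 to 6 lower. Stromal markers were lower in 5 of 6 tested after 1 day and in 0 or 1 at the other durations, white-like adipocyte markers in 1 to 3 of 4 and Schwann cell markers in 0 or 1 of 3. The erythroid and endothelial marker sums were also higher in several cold groups, 5 or 6 of 9 macrophage markers were higher from 3 days on, 6 of 12 muscle markers were lower after 5 days, and the 12 skeletal muscle markers varied from 49.6 to 1472 CPM between mice. The part of these markers in the results below was not tested. In bulk tissue, fewer cells of a type and less RNA per cell cannot be told apart.

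Only 23 of the 37 genes held enough counts for a test in at least 1 comparison: both ribosomal RNA genes, 8 messenger RNA genes and 13 transfer RNA genes. The transfer RNA genes carry the largest differences, so their sequences are shown first. The 13 tested transfer RNA genes are 66 to 75 bases long, which is shorter than the read. They are printed 5′ to 3′ on their own strand with the anticodon, the triplet that reads the codon, in capitals. The sequences and coordinates are from the GENCODE M21 annotation of GRCm38, which is the build the authors used. A script placed each anticodon in a 7-base loop where the 5 bases on either side paired best, with 4 or 5 pairs in each of the 13 genes.
mt-Tf (phenylalanine, chrM:1-68, plus strand): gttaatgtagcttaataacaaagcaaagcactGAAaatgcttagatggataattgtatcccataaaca
mt-Tv (valine, chrM:1025-1093, plus strand): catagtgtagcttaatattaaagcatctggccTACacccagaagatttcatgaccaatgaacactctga
mt-Tl1 (leucine, chrM:2676-2750, plus strand): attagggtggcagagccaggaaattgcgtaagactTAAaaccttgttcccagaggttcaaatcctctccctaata
mt-Ti (isoleucine, chrM:3706-3774, plus strand): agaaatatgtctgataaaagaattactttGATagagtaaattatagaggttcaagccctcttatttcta
mt-Tq (glutamine, chrM:3772-3842, minus strand): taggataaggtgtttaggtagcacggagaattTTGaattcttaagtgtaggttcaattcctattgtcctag
mt-Tm (methionine, chrM:3845-3913, plus strand): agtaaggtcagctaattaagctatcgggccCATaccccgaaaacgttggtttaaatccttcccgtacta
mt-Ta (alanine, chrM:5018-5086, minus strand): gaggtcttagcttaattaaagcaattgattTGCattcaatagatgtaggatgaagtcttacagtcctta
mt-Tc (cysteine, chrM:5192-5257, minus strand): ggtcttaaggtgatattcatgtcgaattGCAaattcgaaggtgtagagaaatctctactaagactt
mt-Tr (arginine, chrM:9808-9875, plus strand): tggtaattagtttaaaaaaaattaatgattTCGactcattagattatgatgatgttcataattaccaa
mt-Tl2 (leucine, chrM:11671-11741, plus strand): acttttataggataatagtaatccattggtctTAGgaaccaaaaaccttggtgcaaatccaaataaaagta
mt-Te (glutamate, chrM:14071-14139, minus strand): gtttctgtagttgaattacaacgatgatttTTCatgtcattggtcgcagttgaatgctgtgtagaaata
mt-Tt (threonine, chrM:15289-15355, plus strand): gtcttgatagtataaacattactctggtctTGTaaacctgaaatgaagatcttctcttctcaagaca
mt-Tp (proline, chrM:15356-15422, minus strand): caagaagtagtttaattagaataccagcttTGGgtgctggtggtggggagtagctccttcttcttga

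The 3 RNA classes behaved differently in cold. Transfer RNA genes rose from 0.0598% ± 0.0227 (SD, n = 5) of all counts at room temperature to 0.371% ± 0.128 after 6 hours and 0.586% ± 0.221 after 1 day. Means of the 2, 3, 4 and 5 day groups were 0.504% ± 0.165, 0.586% ± 0.260, 0.416% ± 0.182 and 0.307% ± 0.112. Control mice lay between 0.0301% and 0.0861% and cold mice between 0.206% and 1.03%, with no overlap at any duration.

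Ribosomal RNA genes held 26.4% ± 1.11 of counts in controls and between 25.7% ± 1.48 (4 days) and 29.3% ± 1.03 (6 hours) in cold. Messenger RNA genes held 13.5% ± 0.789 in controls and 11.1% ± 1.53 after 3 days, the lowest group mean. The plot of class shares shows that both of these classes overlapped the controls at the remaining durations, while the 3 day messenger RNA shares (9.04% to 12.7%) lay below all controls when compared before rounding. Shares are sums over chosen genes and were not tested. A nuclear gene with many counts, Gm42418, took 9.76% ± 0.960 of counts in controls and 14.7% ± 1.58 after 3 days, which lowers the share left to other genes. With Gm42418 left out of the total, messenger RNA genes held 14.96% in controls and 12.95% after 3 days. Its part in the 3 day share was not tested.

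**Figure D1:**
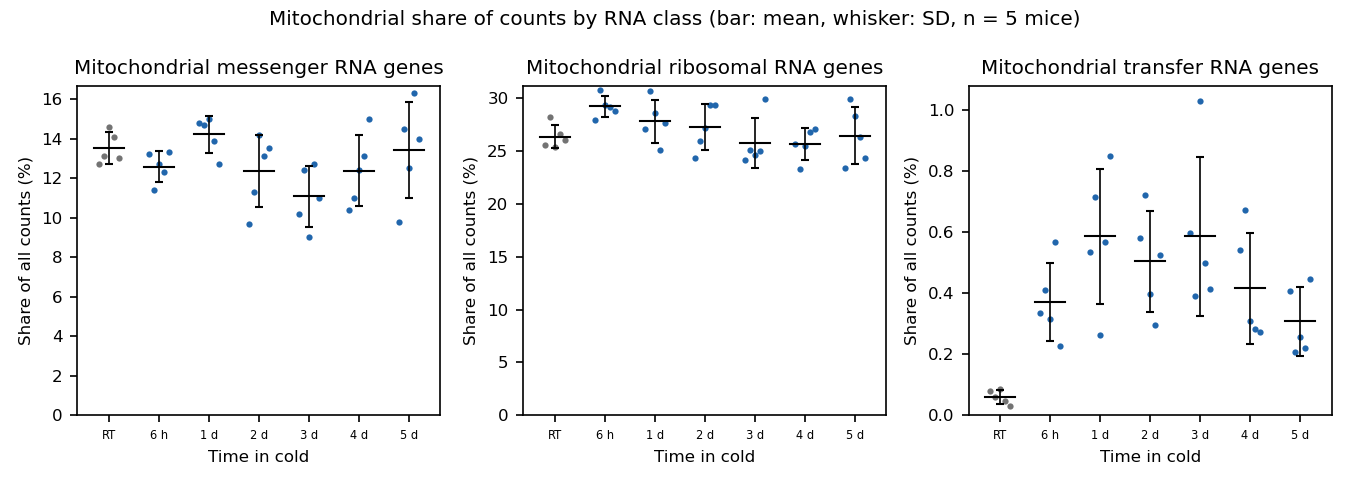
Share of all counts (%) in each mouse, by group, for mitochondrial messenger, ribosomal and transfer RNA genes, with bars for means and whiskers for SD (n = 5 mice). Transfer RNA shares of cold mice start at 0.206% and all exceed the control maximum of 0.0861%. Messenger RNA shares run from 9.04% to 16.3% in cold mice and ribosomal RNA shares from 23.3% to 30.8%, ranges that span those of the controls.

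Each cold duration was compared with the same 5 controls by edgeR's quasi-likelihood test over all genes, so the 6 comparisons are not independent, and a gene was called at a Benjamini-Hochberg adjusted p below 0.05. After 6 hours, 18 of 22 tested mitochondrial genes were higher and 0 lower, against 21.6% higher and 21.0% lower among all 10593 genes tested. DESeq2 also called 0 lower, and at an unadjusted p below 0.05 edgeR gave 1, mt-Nd4 at a log2 fold change of -0.21. The 1 day comparison had 19 of 23 genes higher and 1 lower (18.9% and 17.8% of all genes). At 2 days the numbers were 16 and 0 by edgeR (16.4% and 14.7%), with 1 lower at an unadjusted p below 0.05 and 1 lower by DESeq2, in both cases mt-Nd4.

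The 3 day comparison called 16 up and 2 down (18.3% and 15.5% of all genes tested). For 4 days the result was again 16 and 2 (20.0% and 18.0%). For 5 days it was 16 and 0 by edgeR (20.2% and 18.6%), with 0 lower by DESeq2 and at an unadjusted p below 0.05. These counts include mt-Tl2, mt-Tt and, from 1 day on, mt-Te, which missed the filter's minimum in at least 1 control and so entered the test only through cold mice that were high. Leaving them aside, a choice made after the data had been seen, 20 genes were tested in each comparison, and 16 of them were higher at 6 hours and at 1 day and 13 at each later duration. Of these, 10 of 10 transfer RNA genes were higher at every duration, with median log2 fold changes of 2.62 at 6 hours, 3.58 at 1 day, 3.32 at 2 days, 3.38 at 3 days, 2.93 at 4 days and 2.35 at 5 days, whereas the median of all genes tested stayed between -0.03 and -0.01. In a test of any difference among the 7 groups, 21 of the 23 genes were called, against 60.4% of all genes, and mt-Rnr2 and mt-Nd2 were not. The called genes again include mt-Tl2, mt-Tt and mt-Te, whose calls lend no support. With scaling by library size only, higher genes made up 25.3% to 35.8% of all calls in place of 50.6% to 54.2%, the median of all genes shifted by -0.14 to -0.23, and every transfer RNA call was kept except that of mt-Tf after 5 days.

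Each of the 10 transfer RNA genes that reached the minimum in all controls had all 5 cold mice above all 5 controls at each duration up to 4 days, and 8 of them did so after 5 days. Of all genes tested, 15.5% showed this separation at 6 hours, 13.2% at 1 day, 11.0% at 2 days, 11.6% at 3 days, 13.3% at 4 days and 13.4% at 5 days. The reverse, all cold mice below all controls, held for mt-Nd4 at 1 to 4 days and for mt-Cytb at 3 days, against 11.9%, 9.14%, 10.4% and 11.8% of all genes at 1, 2, 3 and 4 days. Nuclear genes for other short noncoding RNAs (small nuclear, small nucleolar and micro RNAs among them) are listed for comparison. Of 20 to 24 tested, 0 to 2 were higher and 1 to 3 lower at a given duration, with medians between -0.23 and 0.08. Whether more transfer RNA sequence was present or more of it carried a tail the primer could bind cannot be told apart with these libraries. The tested transfer RNA genes are also shorter than the read. Whether their counts came from cut transfer RNAs, from longer uncut precursors or from RNA of the opposite strand was not tested. Where in the RNA the primer bound was not tested either.

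The cysteine transfer RNA gene mt-Tc had the largest fold change of all members, after 1 day. Its 5 controls were at 53.1, 32.2, 66.8, 21.5 and 11.2 CPM, against 437, 596, 659, 1125 and 389 CPM after 6 hours and 1102, 1605, 607, 1035 and 1468 CPM after 1 day. No cold mouse at these durations came near the highest control. The log2 fold change of mt-Tc was 4.11 (SE 0.38, adjusted p = 1.6e-07 by edgeR) after 6 hours and 4.99 (SE 0.39, adjusted p = 1.1e-07) after 1 day. It was 3.85 (SE 0.32, adjusted p = 6.8e-08) after 5 days, when the mice lay between 441 and 709 CPM.

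The leucine transfer RNA genes responded on the same scale. The first, mt-Tl1, lies directly after mt-Rnr2 and covers a known transcription termination site. It was at 56.2, 38.0, 47.4, 36.2 and 19.8 CPM in controls and at 650, 780, 539, 1162 and 435 CPM after 6 hours. All cold groups stayed above the controls, with a lowest cold mouse of 262 CPM. For mt-Tl1 the log2 fold change was 4.16 (SE 0.27, adjusted p = 3.1e-09 by edgeR) after 6 hours, 4.57 (SE 0.37) after 1 day and 3.69 (SE 0.32, adjusted p = 9.3e-08) after 5 days.

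The second leucine gene, mt-Tl2, was rare, at 2.12, 2.33, 5.22, 1.64 and 1.27 CPM in controls, and reached 29.6, 40.9, 35.8, 66.0 and 27.4 CPM after 6 hours. Its cold mice lay above its controls in every group, and fitted log2 fold changes ran from 3.85 to 4.65. The proline gene, mt-Tp, was higher at all 6 durations, from a log2 fold change of 2.79 (SE 0.20) after 6 hours to 4.44 (SE 0.31) after 3 days. For the threonine gene mt-Tt, fitted values went from 2.67 (SE 0.37) to 3.77 (SE 0.35) over the same time. The glutamate gene mt-Te, untested after 6 hours for low counts, was at 0.329 to 0.653 CPM in controls, which is 2 or 3 counts in each library, and at 5.91 to 14.6 CPM after 1 day. Because mt-Tl2, mt-Tt and mt-Te passed the filter only through cold mice, their values are given as a description and their calls as no support.

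The glutamine and alanine genes had the most transfer RNA counts in controls. The glutamine gene mt-Tq was at 248, 172, 254, 123 and 76.8 CPM in controls and at 566, 675, 628, 1137 and 428 CPM after 6 hours. Its log2 fold changes stayed between 1.96 (SE 0.28) and 2.80 (SE 0.36). The alanine gene mt-Ta, from 63.9 to 215 CPM in controls and from 515 to 1679 CPM after 6 hours, had log2 fold changes between 2.07 (SE 0.25) and 2.99 (SE 0.30).

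As shares of all transfer RNA counts, mt-Tq went from 32.0% ± 2.602 in controls to 17.9% ± 1.14 after 6 hours and mt-Ta from 28.8% ± 2.51 to 18.7% ± 1.57 after 1 day. The share of mt-Tc went from 6.35% ± 1.70 to 19.6% ± 1.82 after 1 day and that of mt-Tl1 from 7.54% ± 0.958 to 18.5% ± 1.21 after 6 hours. Isoleucine (mt-Ti), methionine (mt-Tm) and arginine (mt-Tr) genes had log2 fold changes of 2.22 to 3.69 over all durations. Among the 10 genes that reached the minimum in all controls, 6 of 6 on the plus strand and 4 of 4 on the minus strand rose after 1 day, with medians of 3.58 and 3.45.

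Phenylalanine and valine transfer RNA genes, which flank the small ribosomal RNA gene mt-Rnr1 on the chromosome, rose and then fell back. The level of mt-Tf was 14.3, 11.5, 19.4, 8.88 and 4.90 CPM in controls, 213, 312, 95.9, 183 and 172 CPM after 1 day, and 35.4, 25.6, 10.2, 16.1 and 26.5 CPM after 5 days. The 1 day mice stood clear of the controls, and 2 of the 5 day mice overlapped them. Its log2 fold change was 4.06 (SE 0.32, adjusted p = 1.0e-07 by edgeR) after 1 day and 0.96 (SE 0.31, adjusted p = 0.019) after 5 days. The later call was lost without room temperature mouse 4 (0.87, adjusted p = 0.0576) or 5 day mouse 1 (0.76, adjusted p = 0.0639), and DESeq2 gave 0.96 with an adjusted p of 0.0848.

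The valine gene mt-Tv followed the same course, with 36.7, 25.2, 70.9, 31.1 and 16.7 CPM in controls, 519, 747, 405, 313 and 360 CPM after 1 day and 107, 130, 60.5, 80.9 and 126 CPM after 5 days. Only 1 mouse of the 5 day group, at 60.5 CPM, lay below the highest control. For mt-Tv the log2 fold change was 3.71 (SE 0.32) after 1 day and 1.49 (SE 0.28, adjusted p = 4.0e-04 by edgeR) after 5 days.

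**Figure D2:**
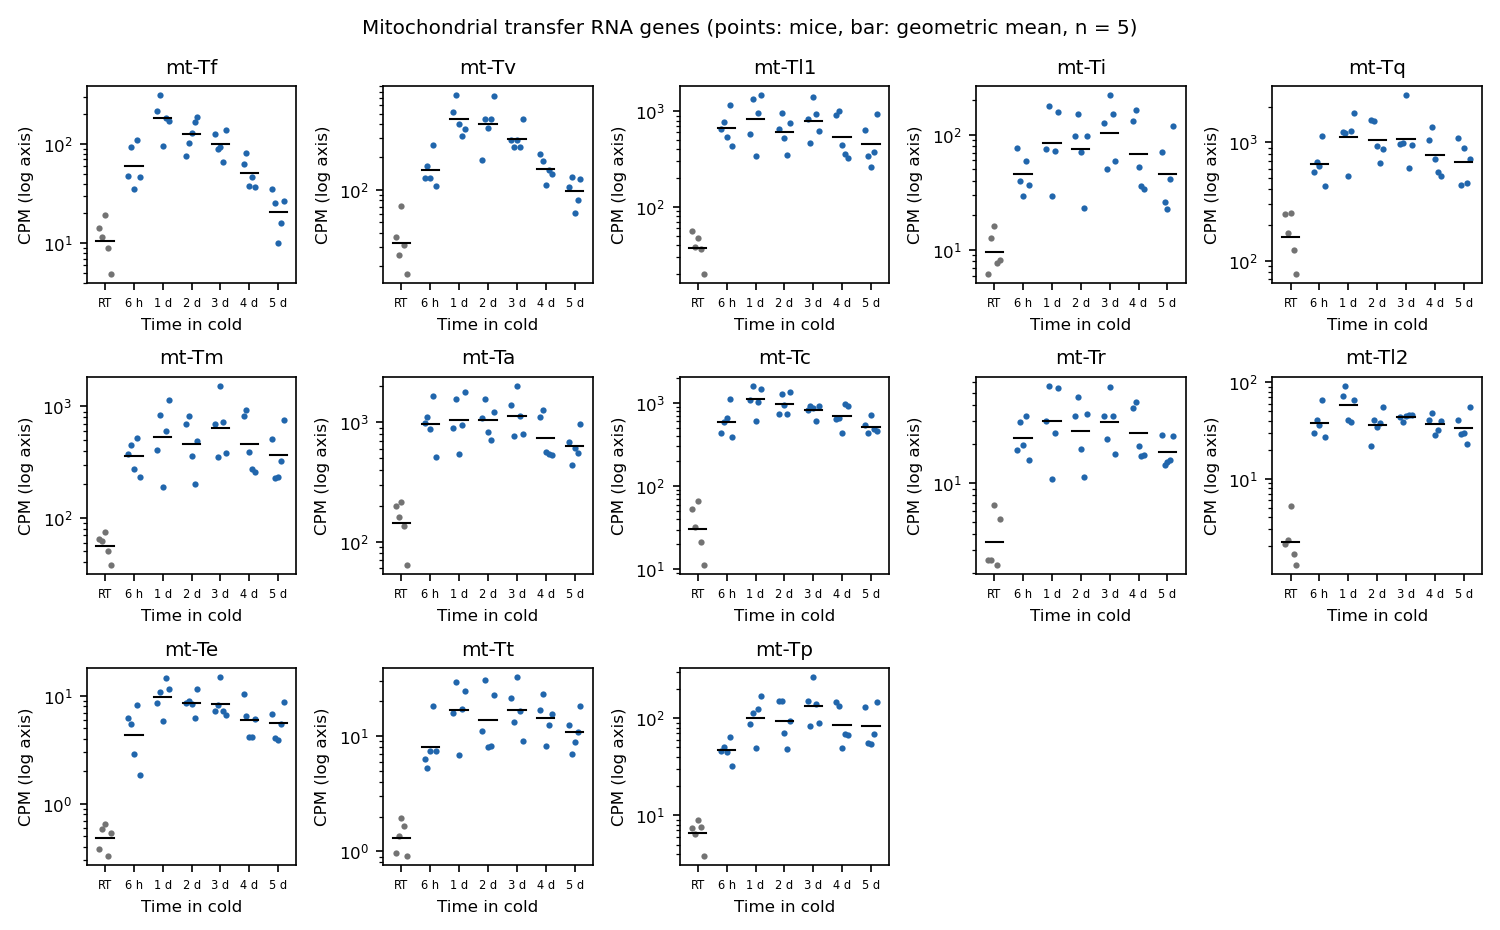
CPM on a log axis of the 13 tested transfer RNA genes in each mouse (points) by time in cold, with bars for the geometric mean of 5 mice. The lowest cold mouse lies above the highest control in every panel except those of mt-Tf and mt-Tv, which decline after 1 day, mt-Tf to 10.2 to 35.4 CPM after 5 days.

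The mouse with the highest value was often the same for many transfer RNA genes of a group, more so in some groups than in others. Control mouse 3 had the highest value for 12 of the 13 genes and control mouse 5 the lowest for 10. After 6 hours mouse 4 was highest for 12 and mouse 5 lowest for 10. In the 1 day group the highest values were split over 3 mice (7, 5 and 1 genes) while mouse 3 was lowest for 11, and in the 2 day group they were again split over 3 mice (6, 5 and 2 genes). Mouse 2 of the 4 day group was highest for 9 and mouse 5 of the 5 day group for 8. After 3 days mouse 3 was highest for 9 genes, with mt-Tf, mt-Tv, mt-Tc and mt-Tl2 as the exceptions, and the same mouse had the lowest mt-Nd4 (11017 CPM) and mt-Cytb (9123 CPM) of its group. All genes of a mouse share 1 library, so these are not independent observations.

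Among the ribosomal RNA genes, mt-Rnr1 encodes the small and mt-Rnr2 the large ribosomal RNA of the mitochondrial ribosome. In controls mt-Rnr1 was at 53174, 54812, 47222, 56822 and 47770 CPM, and after 6 hours at 64510, 69663, 71253, 76940 and 65286 CPM, without overlap. Its log2 fold change was 0.40 (SE 0.09, adjusted p = 0.00191 by edgeR) after 6 hours and 0.40 (SE 0.11, adjusted p = 0.00774) after 1 day, the second lost with scaling by library size only (0.18, adjusted p = 0.108). Later values of 0.16 to 0.29 did not pass edgeR's pairwise test. For mt-Rnr1 at 2 days a fit of all 7 groups (0.29, adjusted p = 0.0476) or leaving out 2 day mouse 1 (0.34, adjusted p = 0.0438) did call it, as did DESeq2 (0.28, adjusted p = 0.00861) or leaving out 5 day mouse 1 (0.31, adjusted p = 0.0388) at 5 days.

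For mt-Rnr2, controls were at 176093, 199232, 184544, 186676 and 169921 CPM and 6 hour mice at 217884, 232955, 237744, 244006 and 223613 CPM. These groups did not overlap, and the log2 fold change was 0.32 (SE 0.09, adjusted p = 0.00675 by edgeR). That call was lost with all 7 groups in 1 fit (0.34, adjusted p = 0.0789) and with scaling by library size only (0.13, adjusted p = 0.144). From 1 day on mt-Rnr2 was at 0.10 to 0.29 and was not called by edgeR's pairwise test. The 1 day value was called by DESeq2 (0.30, adjusted p = 0.0481) and without 1 day mouse 4 (0.35, adjusted p = 0.0364), and the 2 day value of mt-Rnr2 without 2 day mouse 1 (0.37, adjusted p = 0.0276).

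Of the 8 tested messenger RNA genes, 4 were higher and 0 lower at 6 hours, against 21.6% and 21.0% of all genes, and 5 were higher and 1 lower at 1 day (18.9% and 17.8%). At 2 days 3 were higher and 0 lower (16.4% and 14.7%), at 3 days 3 and 2 (18.3% and 15.5%), at 4 days 3 and 2 (20.0% and 18.0%) and at 5 days 3 and 0 (20.2% and 18.6%). Counts of 1 or 2 lower genes among 8 are near these shares of all genes. The genes mt-Nd1, mt-Nd3 and mt-Nd6 were called higher at the last 4 durations.

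The complex I subunit gene mt-Nd1 was not called at 6 hours and was higher at every later duration. Its controls were at 23567, 23871, 25046, 19802 and 20528 CPM, with 22716, 20330, 26875, 25075 and 27083 CPM after 6 hours and 32308, 42601, 42622, 59736 and 49146 CPM after 5 days. The 6 hour mice overlapped the controls and the 5 day mice did not. Its log2 fold change was 0.09 (SE 0.10, adjusted p = 0.48 by edgeR) after 6 hours, 0.59 (SE 0.12, adjusted p = 0.00127) after 1 day, 0.66 (SE 0.19, adjusted p = 0.0173) after 2 days and 1.00 (SE 0.15, adjusted p = 5.6e-05) after 5 days. As a share of messenger RNA counts, mt-Nd1 went from 18.8% ± 2.10 in controls to 33.1% ± 2.39 after 4 days.

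The gene mt-Nd6, also for a complex I subunit, is the one messenger RNA gene on the minus strand. It was at 53.3, 51.4, 52.0, 54.6 and 53.0 CPM in controls and at 178, 136, 174, 201 and 156 CPM after 1 day. Controls were tightly grouped, and only 1 cold mouse, at 48.5 CPM after 6 hours, lay below them. The log2 fold change was 0.66 (SE 0.17, adjusted p = 0.00514 by edgeR) after 6 hours, 1.67 (SE 0.11, adjusted p = 2.0e-08) after 1 day, 1.77 (SE 0.15) after 2 days and 1.13 (SE 0.16, adjusted p = 3.3e-05) after 5 days. It overlaps the end of mt-Nd5 on the opposite strand. The strand setting of the counting is not given in the sources used here.

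The gene mt-Nd3 encodes another complex I subunit and was higher at 5 of 6 durations. It is a special case, since 97.8% of its 76-base windows, though not the last, also occur in the nuclear pseudogene Gm28438 (0 to 10 counts per library). Its controls were at 28.6, 36.3, 35.7, 13.8 and 27.6 CPM and its 5 day mice at 59.9, 69.9, 96.7, 173 and 128 CPM. The log2 fold change was 1.90 (SE 0.26, adjusted p = 2.1e-05 by edgeR) after 5 days. Over all 35 libraries, mt-Nd3 had 28 to 886 counts per library. How reads with several matches were counted is not given in the sources used here. After 1 day, when mouse 4 was at 7.16 CPM, mt-Nd3 was at 0.61 (adjusted p = 0.236), and without that mouse at 0.89 (adjusted p = 0.0175).

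By edgeR's pairwise test, mt-Co1, the catalytic core of complex IV, and the complex I genes mt-Nd5 and mt-Nd2 were called higher at 1 day and not from 2 days on. For mt-Co1, controls were at 6188, 7217, 8205, 8313 and 6752 CPM, 6 hour mice at 11023, 10961, 10669, 11750 and 11418 CPM and 1 day mice at 11762, 16229, 10546, 12846 and 13898 CPM. Neither cold group overlapped the controls, and the log2 fold change was 0.59 (SE 0.10, adjusted p = 9.6e-05 by edgeR) after 6 hours and 0.83 (SE 0.13, adjusted p = 1.1e-04) after 1 day. From 2 days on mt-Co1 was at 0.14 to 0.26 and was not called. Of its windows, 39.4% occur in the nuclear pseudogenes Gm29216 and Gm13340, the last window of the gene included.

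For mt-Nd5, controls of 4433, 4156, 4816, 4963 and 3619 CPM compared with 7005, 7749, 6924, 7847 and 7351 CPM after 1 day, again without overlap. The log2 fold change was 0.52 (SE 0.10, adjusted p = 6.1e-04 by edgeR) after 6 hours and 0.75 (SE 0.11, adjusted p = 4.5e-05) after 1 day, and was between -0.08 and 0.37 afterwards, not called by this test. At 2 days mt-Nd5 was called by DESeq2 (0.38, adjusted p = 0.016), in a fit of all 7 groups (0.38, adjusted p = 0.0348) and without 2 day mouse 1 (0.41, adjusted p = 0.0186) or mouse 2 (0.43, adjusted p = 0.0423). The gene mt-Nd2 passed edgeR's pairwise test after 1 day, at 0.58 (SE 0.15, adjusted p = 0.00522), and mt-Nd2 was called at 5 days only without 5 day mouse 1 (0.45, adjusted p = 0.0196).

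The complex I gene mt-Nd4 and the complex III gene mt-Cytb were the 2 that fell. In controls mt-Nd4 was at 27360, 28602, 29806, 34332 and 29386 CPM, and after 3 days at 13990, 20168, 11017, 20081 and 19208 CPM. Every 3 day mouse lay below every control, with a log2 fold change of -0.82 (SE 0.16, adjusted p = 7.8e-04 by edgeR). After 4 days mt-Nd4 was at 12234, 12503, 17450, 23410 and 27221 CPM, all below the controls, at -0.68 (SE 0.19, adjusted p = 0.0107). After 1 day it was at -0.32 (SE 0.11, adjusted p = 0.0325), a call lost without any 1 of 4 mice (controls 3 and 4, 1 day mice 4 and 5), in a fit of all 7 groups and with no filter. Of its 76-base windows, 61.5% also occur in the nuclear pseudogene Gm28439, which had 0 to 10 counts per library. The last window of mt-Nd4 is not among them.

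For mt-Cytb, controls were at 23764, 25897, 25887, 24032 and 22977 CPM and 3 day mice at 11225, 16654, 9123, 12625 and 17751 CPM, with no overlap. The log2 fold change was -0.85 (SE 0.16, adjusted p = 5.5e-04 by edgeR). The 4 day mice spread from 9269 to 23912 CPM, the highest of them among the controls, at -0.67 (SE 0.21, adjusted p = 0.0212), and that call was lost without 4 day mouse 1 (-0.55, adjusted p = 0.0503) and by DESeq2 (-0.66, adjusted p = 0.0662). In the 5 day group mt-Cytb ranged from 9902 to 26752 CPM and mt-Nd4 from 11606 to 31877 CPM, and neither passed.

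The ends of the messenger RNA genes differ in a way that the annotation shows directly. The last 30 bases are printed below for the tested genes with the most counts and for mt-Nd6, with the stop codon, or the part of it that the DNA encodes, in capitals. The genes mt-Nd4 and mt-Cytb end in a lone T, which polyadenylation completes to a stop codon, while the other tested messenger RNA genes are annotated with a whole codon. The final A and G of mt-Nd1 and of mt-Nd2 are also the first bases of mt-Ti and mt-Tw on the same strand. The annotation therefore does not show whether the cut RNAs of mt-Nd1 and mt-Nd2 keep a whole codon. This is a description of the sequence, and mt-Co3, which also ends in a lone T, had too few counts for a comparison.
mt-Nd1 (chrM:3678-3707, plus strand): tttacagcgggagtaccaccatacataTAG
mt-Nd2 (chrM:4922-4951, plus strand): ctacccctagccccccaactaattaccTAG
mt-Co1 (chrM:6843-6872, plus strand): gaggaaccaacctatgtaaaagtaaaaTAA
mt-Nd4 (chrM:11515-11544, plus strand): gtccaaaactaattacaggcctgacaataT
mt-Nd5 (chrM:13536-13565, plus strand): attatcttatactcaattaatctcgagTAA
mt-Nd6 (chrM:13552-13581, minus strand): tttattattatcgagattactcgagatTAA
mt-Cytb (chrM:15259-15288, plus strand): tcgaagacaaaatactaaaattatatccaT

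**Figure D3:**
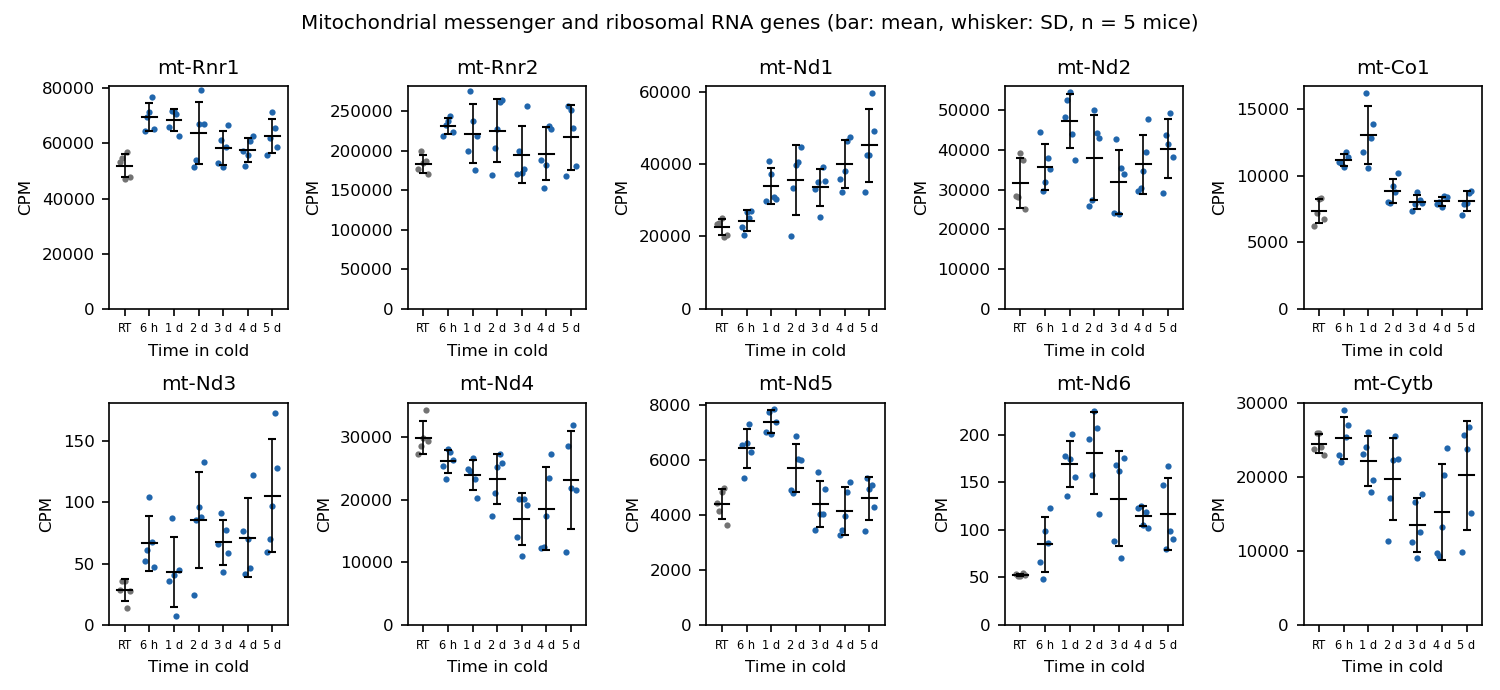
CPM of the 2 ribosomal and 8 tested messenger RNA genes in each mouse (points) by time in cold, with bars for means and whiskers for SD (n = 5). The mean of mt-Nd1 is 22563 CPM in controls and 45283 CPM after 5 days. The mean of mt-Co1 peaks at 13056 CPM after 1 day. Those of mt-Nd4 and mt-Cytb are lowest after 3 days, at 16893 and 13476 CPM.

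Scaling each library to its own mitochondrial total asks which genes moved against the others, whatever happened to nuclear genes. With this scaling, 15 genes were higher and 2 lower after 6 hours (10.2% and 37.2% of all genes tested), 17 and 2 after 1 day (7.82% and 34.9%) and 16 and 2 after 2 days (6.97% and 19.7%). The counts were 16 and 2 after 3 days (13.3% and 13.7%), 16 and 2 after 4 days (12.6% and 17.0%) and 15 and 2 after 5 days (9.07% and 25.4%). Without mt-Tl2, mt-Tt and mt-Te, 12 to 14 of 20 were higher. Because every library is a share of 1 total, a rise of one gene lowers the others.

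The 2 lower genes were mt-Nd4 and mt-Cytb at all 6 durations. Relative to the mitochondrial total, mt-Nd4 was at -0.48 (SE 0.08, adjusted p = 9.9e-05 by edgeR) after 6 hours, -0.88 (SE 0.11) after 3 days and -0.66 (SE 0.14, adjusted p = 8.3e-04) after 5 days. On the same scale mt-Cytb was at -0.24 (SE 0.09, adjusted p = 0.0251) after 6 hours, -0.93 (SE 0.10, adjusted p = 1.9e-06) after 3 days and -0.57 (SE 0.14) after 5 days. The 6 hour count fell to 1 without any 1 of 4 mice (control 5, and 6 hour mice 1, 2 and 4).

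As a share of messenger RNA counts, mt-Nd4 went from 24.9% ± 1.95 in controls to 14.8% ± 2.03 after 4 days and mt-Cytb from 20.4% ± 1.35 to 12.0% ± 2.41. On the mitochondrial scale mt-Nd1 was higher from 1 day on, at 0.26 (SE 0.10, adjusted p = 0.039 by edgeR) rising to 0.76 (SE 0.13) after 5 days. The ribosomal RNA genes stayed between -0.05 and 0.13 and were not called. They made up 65.2% to 69.3% of mitochondrial counts by group mean, so this scaling could hardly move them and their result decides nothing. The 10 transfer RNA genes that reached the minimum in all controls were higher at each duration except mt-Tf after 5 days (0.81, adjusted p = 0.065).

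**Figure D4:**
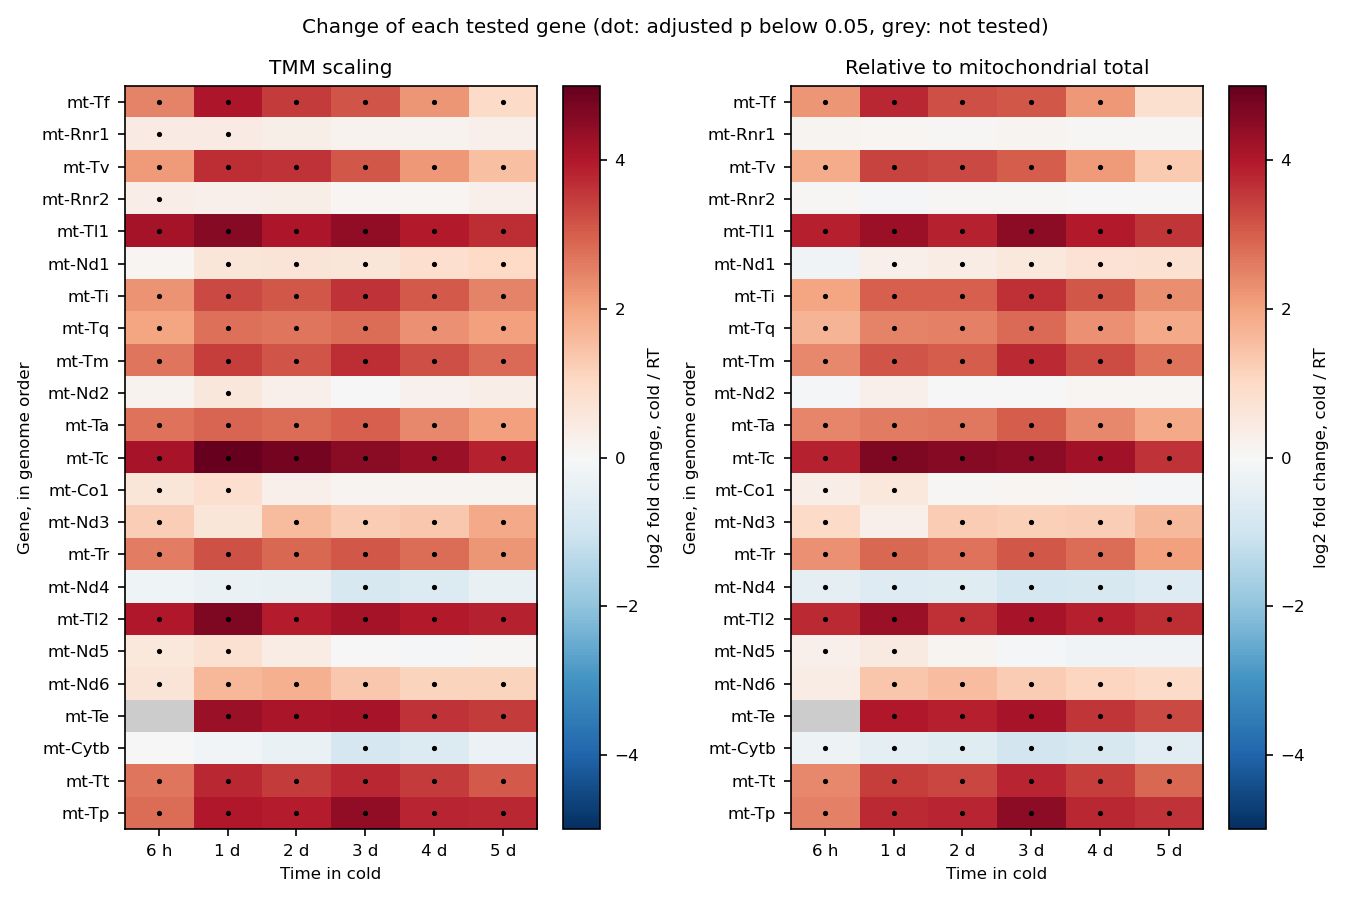
Log2 fold change of each tested gene against room temperature by time in cold, with genes in genome order, scaled by TMM (left) or to the mitochondrial total (right). Dots mark adjusted p below 0.05 and grey marks mt-Te after 6 hours, which was not tested. Transfer RNA genes form deep red lines, up to 4.99 for mt-Tc, and mt-Nd4 and mt-Cytb are blue at 3 and 4 days in both panels.

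Differences between durations were tested in 1 fit of all 35 mice. Between 6 hours and 1 day, 8 of 23 genes were higher and 0 lower, against 8.15% and 7.17% of all genes, and 0 were lower at an unadjusted p below 0.05. They were mt-Tf at 1.56 (SE 0.31, adjusted p = 4.7e-04 by edgeR), mt-Tv at 1.56 (SE 0.30), mt-Tp at 1.19, mt-Tt at 1.07, mt-Te at 1.06, mt-Nd6 at 0.99, mt-Tc at 0.86 and mt-Nd1 at 0.47. Of these, mt-Tt and mt-Te passed the filter only through cold mice. The next step, to 2 days, had 1 lower gene, mt-Co1 at -0.56 (SE 0.11, adjusted p = 0.00162), against 1.12% of all genes, and 0 higher by edgeR (2.04% of all genes), with 1 higher at an unadjusted p below 0.05. Each of the remaining 3 steps had 0 calls by edgeR among the mitochondrial genes, where 0.397% or less of all genes were higher and 0.0994% or less lower.

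At an unadjusted p below 0.05, 4 genes were lower from 2 to 3 days (mt-Nd4, mt-Nd5, mt-Nd6 and mt-Cytb), and the pair of mt-Tf and mt-Tv was lower from 3 to 4 and again from 4 to 5 days, with 0 higher in each of these steps. A contrast of 5 days against 1 day, added after the data had been seen, called 6 genes lower (9.52% of all genes) and 1 higher (10.9%). The lower ones were mt-Tf at -3.10 (SE 0.34, adjusted p = 4.0e-08 by edgeR), mt-Tv at -2.22 (SE 0.31), mt-Tc at -1.14 (SE 0.30), mt-Tl2 at -0.79 (SE 0.24), mt-Co1 at -0.69 (SE 0.11) and mt-Nd5 at -0.68 (SE 0.14). Of these, mt-Tl2 passed the filter only through cold mice. The higher one was mt-Nd3 at 1.29 (SE 0.38, adjusted p = 0.013).

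The 14 genes without enough counts were 5 messenger and 9 transfer RNA genes. Among the messenger RNA genes, mt-Co2 and mt-Co3 (complex IV), mt-Atp6 and mt-Atp8 (complex V) and mt-Nd4l (complex I) had at most 12, 3, 7, 5 and 5 counts in any library. Of their 76-base windows, 99.5% (mt-Co2), 99.9% (mt-Co3), 99.5% (mt-Atp6) and 98.6% (mt-Nd4l) occur exactly in annotated nuclear pseudogenes. None of mt-Atp8, a gene that overlaps mt-Atp6, was found in an annotated nuclear transcript. The last window of each of these genes is not among the copies found. The pseudogenes that hold the copies had few counts too, with medians of 0 (Gm10222) to 98 (Gm13341) per library.

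The transfer RNA genes for tryptophan (mt-Tw), asparagine (mt-Tn), tyrosine (mt-Ty), serine (mt-Ts1 and mt-Ts2) and histidine (mt-Th) had at most 8, 4, 6, 2, 3 and 2 counts, and those for aspartate (mt-Td), lysine (mt-Tk) and glycine (mt-Tg) had 0 in all 35 libraries. No copy of a whole transfer RNA gene was found in an annotated nuclear transcript, and unannotated nuclear sequence was not searched. How reads with several matches were counted is not given, and whether that bears on these low counts was not tested. A level of 0 in these libraries says nothing about RNA that the primer does not catch.

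Nuclear genes for mitochondrial RNA handling were counted as lists, to be read against the 16.4% to 21.6% of all genes tested that were higher and the 14.7% to 21.0% that were lower at a given duration. Of 23 genes for processing, polyadenylation, stability and decay, 13 were higher at 6 hours, 10 at 1 and at 2 days, 9 at 3 days, 11 at 4 days and 13 at 5 days, with 0 or 1 lower and medians of 0.27 to 0.40. Rexo2, a mitochondrial exonuclease, rose from 96.8 ± 9.56 CPM to 180 ± 7.92 after 6 hours and 303 ± 49.1 after 2 days, a log2 fold change of 1.64 (SE 0.12, adjusted p = 2.0e-07 by edgeR). Fastkd2 and Ptcd2, RNA-binding proteins of the organelle, were higher at all 6 durations, at 1.06 (SE 0.18) and 0.86 (SE 0.12) after 6 hours.

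Named after its values were seen, the mitochondrial poly(A) polymerase gene Mtpap was higher at all 6 durations, from a log2 fold change of 0.35 (SE 0.12, adjusted p = 0.0275 by edgeR) after 6 hours to 0.85 (SE 0.12, adjusted p = 3.5e-05) after 5 days. Among subunits of the enzyme that cuts the 5′ ends of transfer RNAs, chosen in the same way, Trmt10c was at 1.38 (SE 0.13, adjusted p = 1.4e-07) after 6 hours, while Hsd17b10 was lower from 1 day on, at -1.21 (SE 0.11, adjusted p = 3.5e-07) after 4 days. Other genes of the processing list, Prorp, Elac2 and Pde12 among them, were not singled out, so the genes named here do not stand for the list. The part of the named genes in the transfer RNA counts was not tested.

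Of 19 or 20 tested genes that modify transfer and ribosomal RNA, 5 to 7 were higher and 1 or 2 lower, and Pus1 and Nsun3 rose while Trit1 fell at all 6 durations. Trit1, which isopentenylates transfer RNAs, was at 20.2 ± 4.75 CPM in controls and 7.34 ± 1.34 after 3 days, a log2 fold change of -1.45 (SE 0.18, adjusted p = 1.8e-05 by edgeR). In the transcription list, 1 to 3 of 8 were higher and 0 lower, a share of higher genes near that of all genes at several durations. Polrmt, the mitochondrial RNA polymerase, was higher at all durations, with 12.7 ± 1.20 CPM in controls, 22.6 ± 2.87 after 1 day and a log2 fold change of 0.82 (SE 0.13, adjusted p = 1.1e-04).

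Of 11 or 12 tested genes for mitochondrial DNA replication and packaging, 0 or 1 were higher and 1 to 4 lower. The coactivator gene Ppargc1a, of the list upstream of mitochondrial biogenesis, was at 60.6 ± 16.5 CPM in controls and 754 ± 226 after 6 hours, a log2 fold change of 3.62 (SE 0.22, adjusted p = 1.2e-09 by edgeR), and at 131 ± 53.1 after 3 days. In that list, which also includes Esrra (higher at all 6 durations), 2 to 4 of 8 or 9 were higher. After 1 day 0 were lower, and 1 was lower at each other duration. Among all genes tested, 16.4% to 21.6% were higher and 14.7% to 21.0% lower at a given duration.

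Nuclear genes also encode most subunits of the respiratory complexes. Of all genes tested, 16.4% to 21.6% were higher and 14.7% to 21.0% lower at a given duration. Several of the counts that follow lie near these shares. Of 36 complex I genes, 6 were higher and 1 lower at 6 hours, 6 and 3 at 1 day, 9 and 2 at 2 days, 6 and 6 at 3 days, 13 and 5 at 4 days and 14 and 2 at 5 days. Ndufa12 rose at all 6 durations, and Ndufs5 rose and Ndufb3 fell at 5 of 6. Of 9 complex III genes, 1 was higher after 6 hours, 7 after 4 days and 8 after 5 days, with 1 lower after 3 and after 5 days. Uqcrh, its hinge subunit, was at 1108 ± 126 CPM in controls and 1606 ± 71.0 after 4 days, a log2 fold change of 0.55 (SE 0.10, adjusted p = 3.2e-04 by edgeR), when mt-Cytb of the same complex was at -0.67.

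Complex IV (14 tested) and complex V (14 or 15 tested) had at most 3 and 4 genes higher at any duration, and at most 4 and 2 lower. Complex II, which has no mitochondrially encoded subunit, had 0 or 1 of 4 higher and 0 lower by edgeR. The counts of complexes II, IV and V are to be read against the same shares of all genes.

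**Figure D5:**
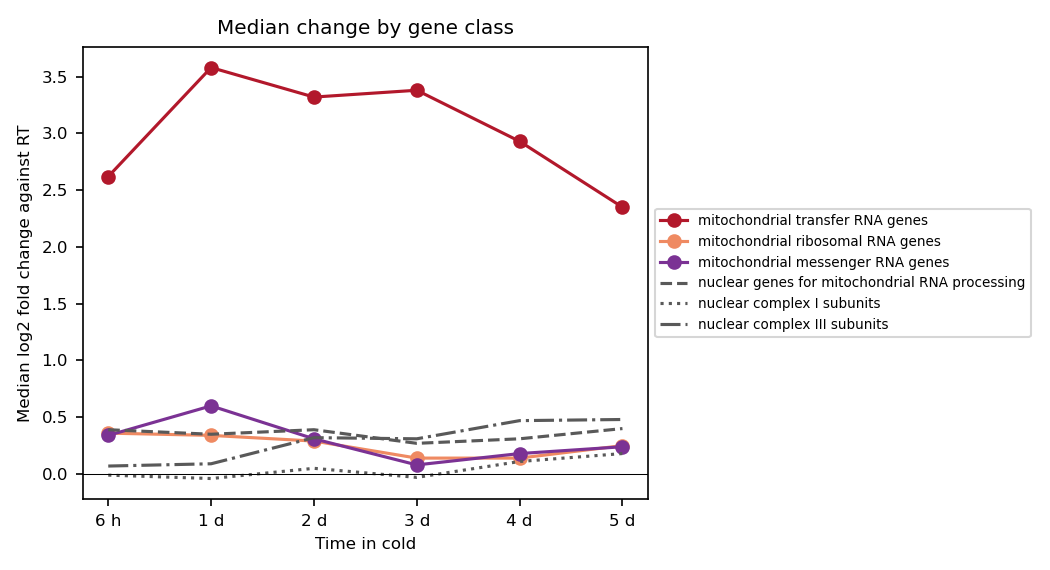
Median log2 fold change against room temperature by time in cold for the 3 mitochondrial RNA classes (solid lines) and 3 lists of nuclear genes (broken lines). Only genes that reached the filter's minimum in all 5 controls enter a mitochondrial line. The transfer RNA line lies between 2.35 and 3.58, while the other lines stay at or below 0.60.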

How the data were processed

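Total RNA from iBAT of 35 mice was made into libraries with the QuantSeq 3′ FWD kit. Reads were aligned with STAR 2.6.1d to GRCm38, and the authors deposited whole-number counts per gene, made with HTSeq 0.11.2, as 1 table without normalization. All 35 columns matched a mouse by group and number. Gene symbols came from a separate list of gene names, by which 267 identifiers had no symbol. Coordinates, biotypes and sequences came from GENCODE M21, in which 181 identifiers were absent.

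CPM values are normalised with TMM factors over all libraries. Tests used edgeR 4.0.16 in R 4.3.3 (filterByExpr, quasi-likelihood, Benjamini-Hochberg adjusted p below 0.05 over all genes) with 2 groups per fit against room temperature (filter minimum a CPM equal to 10 counts in the median library, in 5 libraries), or all 7 groups in 1 fit. A further fit set library size to the mitochondrial total. Tables were made in Python 3.11.15. The fits were tested on simulated data. Between 3846016 and 6047247 counts per library limit the precision of genes near 1 CPM. Intervals between mice, not reads, set the errors.

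The members and lists were chosen with earlier results of these data known. The rule for named genes took all messenger and ribosomal RNA genes, the transfer RNA genes tested in at least 1 comparison, and at most 3 genes of a nuclear list called in 1 direction at 5 or more durations. Lists were transcription, replication, RNA processing, RNA modification, biogenesis factors, respiratory complexes and cell type markers. Marker sums of stromal cells were 681 to 1074 CPM in controls and 384 to 1113 in cold, of white-like adipocytes 66.8 to 163 and 34.2 to 134, of Schwann cells 20.6 to 34.2 and 13.5 to 32.6, and of mature adipocytes 15081 to 19088 and 13005 to 23480. Alternatives were RLE size factors, library size only, scaling from nuclear genes or without Gm42418, no filter, DESeq2 1.42.0, a replicate block, all groups in 1 fit, the messenger RNA total and leaving out each mouse. Replicate numbers name different mice and do not pair them.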

Additional observations from a re-analysis of the deposited data

Results flagged for a closer look

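In 7 of 182 sets of 5 mice, the highest or lowest mouse stood apart from the other 4 by Dixon's test, where chance gives about 1 in 20. After 3 days, mouse 5 had the highest ribosomal RNA share (29.9% of counts) and mt-Tv level (445 CPM), mouse 3 the highest mt-Tq (2511 CPM) and mt-Te (15.0 CPM), and mouse 2 the lowest mt-Tl2 (38.9 CPM). Control mouse 3 had the highest mt-Tl2 (5.22 CPM) and 6 hour mouse 4 the highest mt-Tt (18.1 CPM).

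The effect of cold also differed between durations, by edgeR contrasts in the fit of all mice. From 6 hours to 1 day the log2 differences were 1.56 (mt-Tf), 1.56 (mt-Tv), 0.47 (mt-Nd1), 0.86 (mt-Tc), 0.99 (mt-Nd6), 1.06 (mt-Te), 1.07 (mt-Tt) and 1.19 (mt-Tp). From 1 to 2 days mt-Co1 differed by -0.56. Between 1 and 5 days, a contrast added after seeing the data, the differences were -3.10 (mt-Tf), -2.22 (mt-Tv), -1.14 (mt-Tc), -0.69 (mt-Co1), 1.29 (mt-Nd3), -0.79 (mt-Tl2) and -0.68 (mt-Nd5). Of the genes listed here, mt-Te, mt-Tt and mt-Tl2 passed the filter only through cold mice, so their calls lend no support.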

How the results depend on the processing

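All 6 comparisons kept their count of higher genes within 1.5 times under every alternative run. Of 137 fold changes of single genes, RLE size factors, nuclear-only scaling and scaling without Gm42418 left 137 in direction and call. Library size only moved the median of all genes by -0.14 to -0.23, lowered the share of calls that were higher from between 50.6% and 54.2% to between 25.3% and 35.8%, and turned 10 uncalled values: mt-Nd1 (-0.09), mt-Nd2 (-0.02) and mt-Cytb (-0.16) after 6 hours, mt-Rnr2 (-0.05), mt-Nd2 (-0.12) and mt-Nd5 (-0.13) after 3 days, mt-Rnr2 (-0.05) after 4 days, and mt-Rnr2 (-0.00), mt-Co1 (-0.09) and mt-Nd5 (-0.17) after 5 days. Counts of lower genes changed to 1 after 6 hours and 2 after 1, 2 and 5 days with library size only, where the contrast of 2 days with 1 day had 2 lower and that of 5 days with 1 day had 2 higher. No filter or all groups in 1 fit gave 0 lower after 1 day, and DESeq2 gave 1 lower after 2 and after 4 days. Against the messenger RNA total, 1 was lower after 6 hours. The cause was not tested.

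Leaving out each mouse gave 0 to 1 lower after 1 day, 1 to 2 after 4 days (1 without 4 day mouse 1), 0 to 1 after 5 days (1 without 5 day mouse 4) and 1 to 2 after 6 hours relative to the mitochondrial total. It moved uncalled values of mt-Cytb after 6 hours between -0.02 and 0.08, and after 3 days mt-Rnr2 between -0.02 and 0.15, mt-Nd2 between -0.10 and 0.12 and mt-Nd5 between -0.08 and 0.09. Same-numbered mice did not deviate together (median r -0.00757 over 105 pairs, 6 of 35 mice best matched to their own number), and the replicate block gave 1 lower after 6 hours and after 5 days (mt-Nd4 at -0.21 and -0.45) and an adjusted p of 0.0664 for mt-Nd1 after 2 days (0.61). Without Gm42418 in the total, messenger RNA shares were 14.96% in controls and 14.03%, 15.80%, 14.24% and 12.95% after 6 hours to 3 days, and ribosomal RNA shares 29.23% in controls and 32.63%, 30.91%, 31.40%, 30.20%, 29.12% and 29.91% from 6 hours to 5 days. Genes under about 1 CPM, mt-Te in controls among them, have few reads behind each value.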
